A study of Mus musculus with 7 samples.

Results

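The genes described here encode the proteins of the cytosolic ribosome in J-1 mouse embryonic stem cells depleted of Mettl3, with attention to Rpl39l and other paralogues. Members were the genes whose single symbol on the array platform is Rpl or Rps followed by a number, or Rplp0, Rplp1, Rplp2 or Rpsa, with at least 2 probe sets. Pseudogenes and the Rps6k kinases were left out. This gave 57 genes of the 22084 that carry a single symbol, of which 30 encode large subunit proteins, 20 small subunit proteins, 3 the stalk proteins and 4 the paralogues Rpl39l, Rpl3l, Rpl10l and Rps27l. The remaining 53 members, without the paralogues, are called the core ribosomal proteins. After a filter on dim probe sets, 51 of the 57 members had the 3 probe sets needed for a gene value, among them 47 core members and all 4 paralogues, against 16353 genes in all.

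Total RNA from 7 samples was hybridised to mouse exon arrays, each probe set of which reads about an exon's worth of transcript. All cells were J-1 embryonic stem cells infected with a lentivirus carrying a short hairpin RNA, and all were grown in full medium. The control group of 3 arrays carried a hairpin against luciferase, which has no target in mouse cells. The Mettl3 hairpin 1 and hairpin 2 groups had 2 arrays each, so every array, the controls included, comes from infected cells. No source used here gives the time after infection or says whether infected cells were selected. Nothing in the labels says that replicates came from separate infections, so the p-values measure the spread between these arrays, which may be technical. The question addressed is how loss of METTL3, the catalytic subunit of the complex that methylates adenosines within messenger RNA, bears on the messages of the ribosomal proteins.

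The cytosolic ribosome joins a small subunit, which decodes the message, to a large subunit, which forms peptide bonds. Its proteins are made in matched amounts from many separate genes. Most of their messages begin with a terminal oligopyrimidine (TOP) tract, an unbroken run of C and T at the cap. The tract lets the mTOR pathway and LARP1 control the translation of these messages together. A few ribosomal proteins have paralogues used mainly in certain tissues. RPL39, among the smallest proteins of the large subunit, lines the exit tunnel for the nascent chain. RPL39L replaces it in a share of ribosomes, chiefly in male germ cells, and is also made in mouse embryonic stem cells.

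Start-site sequences from RefSeq (GRCm38.p6) show how runs of C and T near the annotated start differ between members. A start was listed for 46 of the 57 members, 42 of them core. Each line gives 30 bases, 10 before the annotated start and 20 from it on, with the longest run of C and T in capitals. Rpl39l and Rpl39 are shown because the results turn on that pair, and Rplp2 and Rpl35 as members with a longer run.
Rpl39l, chr16:10170218-10170247, plus strand: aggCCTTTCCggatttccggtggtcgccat
Rpl39, chrX:37085203-37085232, minus strand: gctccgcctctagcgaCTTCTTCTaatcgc
Rplp2, chr7:141447641-141447670, plus strand: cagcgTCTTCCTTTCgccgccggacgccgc
Rpl35, chr2:39005112-39005141, minus strand: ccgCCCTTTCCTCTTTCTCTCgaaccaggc
The run was 7 bases in Rpl39l, 8 in Rpl39, 10 in Rplp2 and 18 in Rpl35. It lay wholly before the annotated start in Rpl39l and began at base 7 from the start in Rpl39. Only in Rplp2 and Rpl35, of these lines, did it span the start. A run of at least 8 C or T on the coding strand, within 20 bases before and 20 after a start, was found in 21 of 42 core members (50%) and in 4965 of 27025 genes with a listed start (18.4%). On the other strand the shares were 5 of 42 (11.9%) and 20.2%. The annotated start need not be the cap site used in these cells, and a run of these letters is a description of the window only.

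Values below are on the log2 scale of the arrays, so a difference of 1 is a 2-fold change. The knockdown was present in every hairpin array. Mettl3 measured 10.38, 10.46 and 10.14 in the luciferase arrays, 8.97 and 8.67 with hairpin 1, and 8.71 and 8.66 with hairpin 2. For the mean of both hairpins Mettl3 fell by 1.57 on the log2 scale, or 2.97-fold. A value, sign or call given below for both hairpins is that of this mean minus luciferase. None of 10 tested stem cell markers was called, where 7.9% of all genes were, and 7 of the 10 were negative. Nanog and Pou5f1 were among the bright genes. In lists this short a lack of calls does not show that cell identity was kept. Fibroblast (9 genes), trophectoderm (7) and primitive endoderm (7) markers also gave no call. Of the 9 fibroblast markers 8 were negative for the mean of both hairpins, 7 with hairpin 1 and 9 with hairpin 2. Their mean level was 7.27 to 7.35 with luciferase and 7.20 to 7.33 with hairpin 1. With hairpin 2 it was 7.09 to 7.17, below all luciferase arrays. That of primitive endoderm was 7.58 to 7.60 with luciferase, 7.42 to 7.44 with hairpin 1, below luciferase, and 7.56 to 7.60 with hairpin 2. Their part in the results below was not tested. Of 6 neural markers, Nes rose and Sox1 fell for the mean of both hairpins, where 5.53% of all genes rose and 2.37% fell. With hairpin 1 alone 1 of the 6 was called, where 5.89% of all genes were. With hairpin 2 alone none was, beside 3.79% of all genes.

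Rpl39l was the member that changed. It was the only one of the 51 tested members called in the comparison of both hairpins with luciferase, where a call is an adjusted p below 0.05 in limma over all genes tested, and 7.9% of all genes were called (5.53% higher and 2.37% lower). Likewise 1 of 51, again Rpl39l, was called with hairpin 1, where 5.89% of all genes were (3.97% higher and 1.93% lower). With hairpin 2 it was again 1 of 51, the same gene, beside 3.79% of all genes (2.72% higher and 1.08% lower). Its call with hairpin 2 was lost without the second hairpin 2 array, where the difference was -0.91 with a limma adjusted p of 0.0581. Without adjustment, 6 of the 51 members (11.8%) had a limma p below 0.05 for both hairpins together, against 24.2% of all genes.

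Rpl39l measured 9.55, 9.64 and 9.53 with luciferase, 8.39 and 8.04 with hairpin 1, and 8.66 and 8.65 with hairpin 2. All 4 knockdown arrays lay below all 3 luciferase arrays, and the narrowest gap between the groups was far wider than the luciferase SD of 0.058 (n = 3). The mean of both hairpins was lower by -1.14 (SE 0.0958, 95% interval -1.35 to -0.93), a 2.20-fold fall with a limma adjusted p of 0.000255. Among all genes tested it was the 5th largest fall, in a ranking that includes Mettl3 itself. With hairpin 1 alone Rpl39l fell 2.57-fold (difference -1.36, limma adjusted p 0.000361). With hairpin 2 alone it fell 1.89-fold (difference -0.92, limma adjusted p 0.00389). These comparisons share the same 3 luciferase arrays. The difference between the hairpins was -0.44 (95% interval -0.72 to -0.16), deeper with hairpin 1, with a limma adjusted p of 0.329, so it was not called.

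**Figure D1:**
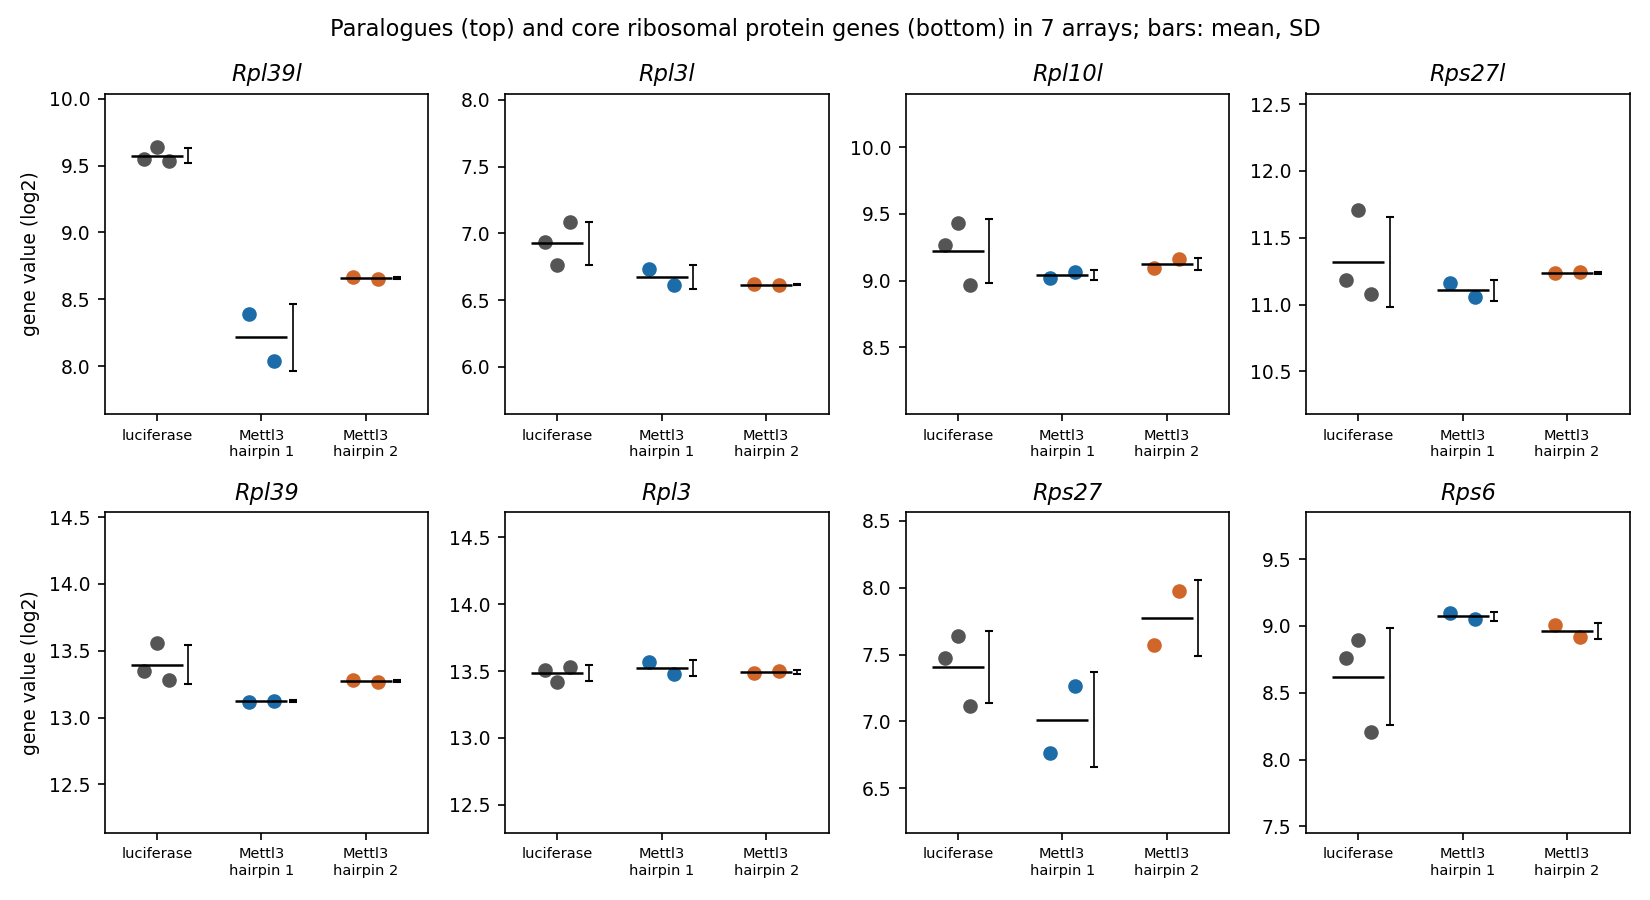
Gene values (log2) of the paralogues Rpl39l, Rpl3l, Rpl10l and Rps27l (top) and of the core genes Rpl39, Rpl3, Rps27 and Rps6 (bottom) by hairpin group; points are arrays, horizontal lines group means and the bars beside them 1 SD either way. Rpl39l drops from 9.53 to 9.64 in the luciferase arrays to 8.04 to 8.66 in the knockdown arrays, while Rpl39 moves between 13.12 and 13.56; each panel has its own level axis.

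The fall was shared by the gene's probe sets. Rpl39l (chromosome 16) has 6 probe sets on the array, of which 5 passed the filter on dim values. Their differences for both hairpins were -0.91, -1.14, -0.41, -0.87 and -0.92, so all 5 were lower in the knockdown. The smallest, -0.41, belongs to the dimmest of the 5, with a luciferase mean of 6.39, and is the only one of them whose groups overlap. The probe set left out as dim, at 3.67 with luciferase and 3.69 in the knockdown, differed by 0.03. The gene value is the median over the kept probe sets and coincides with the probe set at -1.14 on every array; averaging the 5 probe sets gave -0.85 instead. The test for probe sets that depart from the rest of their gene (limma diffSplice) called Rpl39l neither way (adjusted p 0.277), nor any other of the 51 members, against 4.97% of all genes. Its exon-level calls are the less certain part of the analysis, since 31.1% of its calls on simulated data were unchanged genes.

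**Figure D2:**
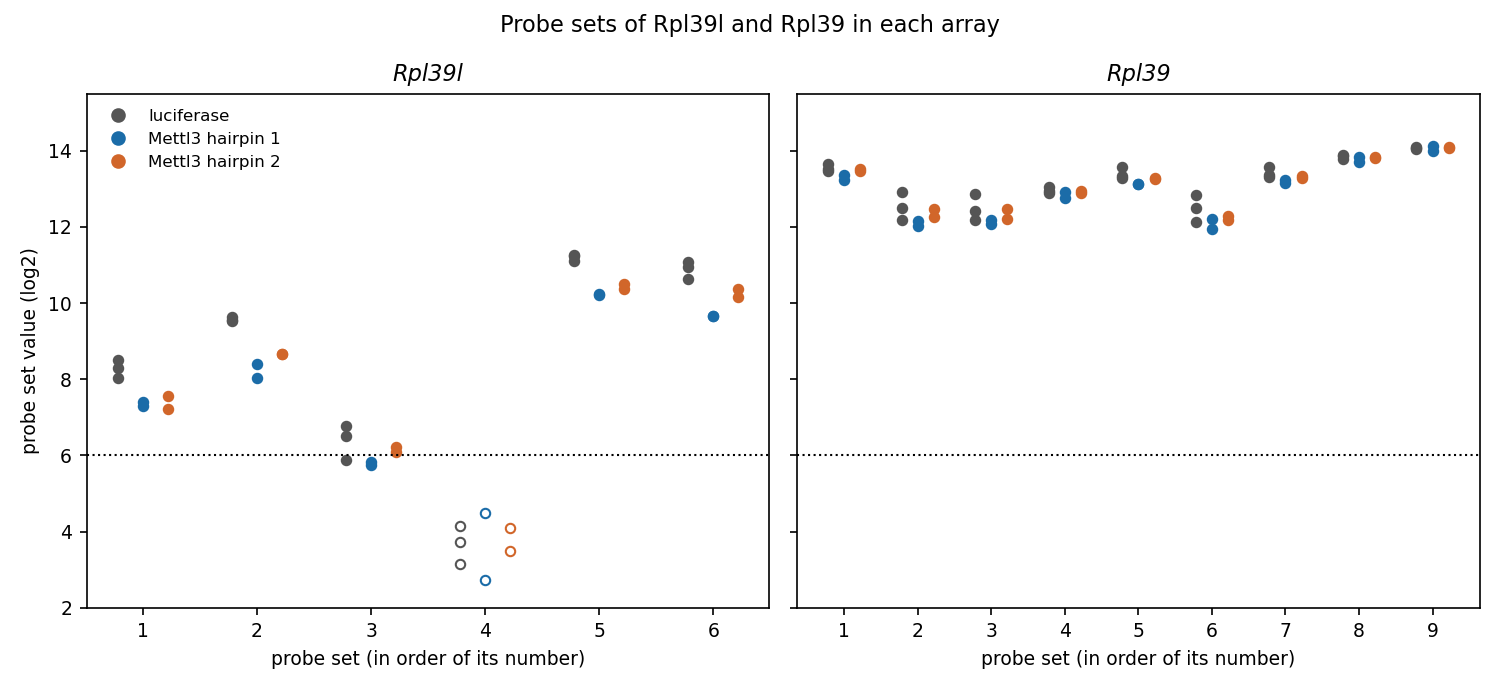
Values (log2) of the 6 probe sets of Rpl39l (left) and the 9 of Rpl39 (right) in order of their platform number, with points for arrays coloured by hairpin group, open points for the probe set dropped as dim and a dotted line at the filter of 6.02, which was applied to the mean over 7 arrays. The 5 kept Rpl39l probe sets are all lower on average in the knockdown arrays, with differences of -0.41 to -1.14.

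RPL39, the partner that RPL39L replaces, was not called. Rpl39 (X chromosome) measured 13.35, 13.56 and 13.28 with luciferase, 13.12 and 13.13 with hairpin 1, and 13.28 and 13.27 with hairpin 2. All 4 knockdown arrays were below the luciferase arrays, but the hairpin 2 arrays were hardly below the lowest of them. The difference for both hairpins was -0.198 (95% interval -0.392 to -0.003) with a limma adjusted p of 0.200. With hairpin 1 alone it was -0.274 with a limma adjusted p of 0.158, which became 0.0368 with the trend and robust options of limma. Even the lower end of the interval for both hairpins is well short of the fall of Rpl39l. Taken on each array, Rpl39l minus Rpl39 was -3.80, -3.92 and -3.75 with luciferase, -4.72 and -5.09 with hairpin 1, and -4.62 and -4.62 with hairpin 2. The size of this quantity depends on probe brightness and means nothing by itself; its shift between groups shows that the paralogue fell relative to its partner on every knockdown array.

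Markers of male germ cells, where RPL39L is best known, moved in part with it. Of 11 listed markers 9 were tested and 3 fell for both hairpins, where 2.37% of all genes fell: Mael, a factor of the piRNA pathway, Dazl, an RNA-binding protein of germ cells, and Tex14, a protein of the bridges between germ cells. Their differences were -0.94, -0.88 and -0.47, the call of Tex14 being lost without a filter on dim probe sets (limma adjusted p 0.064). The other 6 were not called, 4 of them positive for the mean of both hairpins: Sycp3 (0.326, and 0.653 with hairpin 2), Prm1 (0.208), Ddx4 and Stra8 (0.034). With hairpin 1 alone 8 of the 9 tested markers were negative, and with hairpin 2 alone 5 were. The mean over the 9 markers was 8.35 to 8.54 with luciferase, 7.87 to 8.16 with hairpin 1 and 8.28 to 8.34 with hairpin 2. Ddx4, the germ cell helicase, gave 0.06 for both hairpins, -0.32 with hairpin 1 and 0.45 with hairpin 2. No tested marker was at 0 on this scale, which has no true zero. The part of these markers in the Rpl39l result was not tested, and in bulk RNA a loss of cells of a type and a lower level per cell cannot be told apart.

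The other paralogues were not called. Rpl3l, made mainly in heart and skeletal muscle in place of RPL3, was dim: 6.93, 6.76 and 7.08 with luciferase, 6.74 and 6.61 with hairpin 1, and 6.62 and 6.61 with hairpin 2. Its knockdown arrays all lay below the luciferase arrays, narrowly for the first hairpin 1 array, and the difference of -0.28 had a limma adjusted p of 0.100. Only 4 of its 10 probe sets passed the filter, against 24 of 24 for Rpl3, whose difference was 0.024. Of the 4 kept probe sets of Rpl3l, 3 were negative and 1 positive, at 0.401. Without the filter the difference of Rpl3l was -0.066 (limma adjusted p 0.784). Leaving out the first hairpin 1 array made the probe sets of Rpl3l differ from one another in diffSplice (adjusted p 0.0047), the only such call among members in any of the leave-one-out fits.

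Rpl10l, a retrogene that stands in for RPL10 during meiosis, measured 9.26, 9.44 and 8.97 with luciferase and 9.02 to 9.16 in the 4 knockdown arrays, within the luciferase range. Its difference of -0.137 had a limma adjusted p of 0.480. All 3 of its probe sets were negative, from -0.519 to -0.176, each a larger fall than that of the gene value. Averaging probe sets in place of their median gave -0.305 with an adjusted p of 0.0346, and median polish -0.271 with 0.0432; 17.4% and 15.1% of all genes were called under those summaries. Rps27l, a paralogue of RPS27 induced by p53, measured 11.18, 11.71 and 11.08 with luciferase and 11.05 to 11.25 in the knockdown. The second luciferase array stood above the other 6, and the difference of -0.148 had a limma adjusted p of 0.549. Rps27 itself gave -0.016. Of the paralogues that the naming rule leaves out, Rpl22l1 and Rpl7l1 differed by -0.057 and 0.001, and the sign of both turned under other settings. Among the 7 paralogues tested, those outside the rule included, the highest difference was 0.013.

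None of the 47 core ribosomal proteins was called, for both hairpins or for either alone. In limma, 4 of the 47 had an unadjusted p below 0.05 for both hairpins, 4 with hairpin 1 and 1 with hairpin 2. Over all genes tested the shares were 24.2%, 22.2% and 18.7%. The smallest adjusted p values of the core in limma were 0.0876, 0.158 and 0.123. The median difference of the core for both hairpins was 0.045, with a range of -0.316 to 0.396, beside 0.00045 over all genes tested. It was positive in 33 and negative in 14. That balance depends on the scaling: with each array centred on its own median gene value, 18 were positive and 29 negative, and the median was -0.011. The median size of a difference, whichever its sign, was 0.064 in the core and 0.120 over all genes. The knockdown arrays stood apart from all luciferase arrays in 4 of 47 core members (8.51%), against 21.8% of all genes. Of those 4 genes 3 were above luciferase (13.4% of all genes) and 1, Rpl39, below (8.4%).

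The 95% intervals of the core cover only the spread between these arrays, not cross-hybridisation. The core was brighter than all genes tested, with a median level of 11.60 against 8.23. Whether the arrays read a change equally well at both levels was not tested. The median SE of a core member's difference was 0.0868, and its 95% interval reached from 0.161 to 0.380 on either side, with a median of 0.194. In 44 of 47 core members the interval lay wholly between -0.5 and 0.5; Rps6, Rpl15 and Rpl7a were the exceptions. In all 47 it lay between -1 and 1. Simulated data had 200 of 16353 genes changed and normal noise of the spread fitted to these arrays. There limma called 78% of genes changed by 0.5 and 100% of those changed by 1. On the real arrays 1292 genes were called, so these rates need not hold for them. Smaller changes were not simulated. The luciferase SD had a median of 0.101 in the core and 0.108 over all genes.

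**Figure D3:**
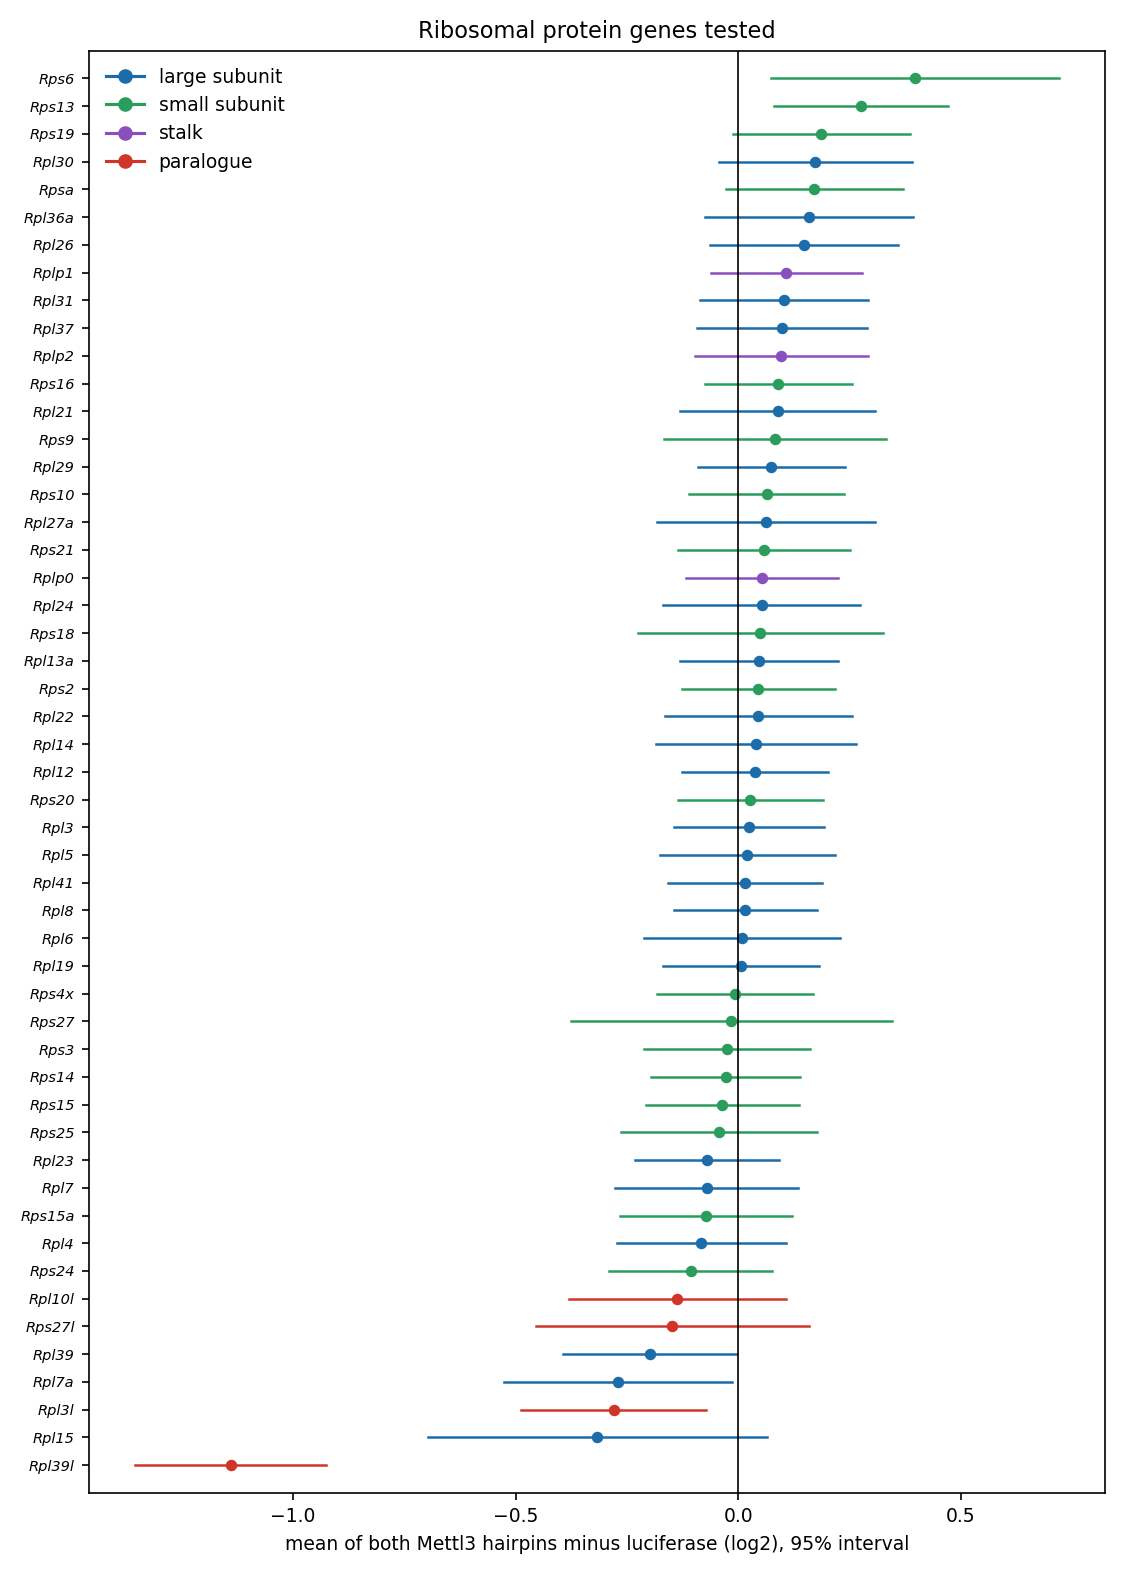
Difference from luciferase (log2, mean of both hairpins) for the 51 tested members in order of size, with 95% intervals as lines and colours for large subunit, small subunit, stalk and paralogue. Rpl39l at -1.14 stands apart at the bottom; the core members run from -0.316 for Rpl15 to 0.396 for Rps6.

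The large subunit holds the peptidyl transferase centre and the exit tunnel. Its 25 tested core members had a median difference of 0.038, 19 of them positive and 6 negative (the sign of small values turns with centring, as above). Rpl15, at the core of the large subunit, had the widest spread between luciferase arrays of any member, with an SD of 0.443 (n = 3). It measured 8.88, 9.39 and 8.51 with luciferase, 8.46 and 8.61 with hairpin 1, and 8.67 and 8.69 with hairpin 2. The second luciferase array was the high value and the groups overlapped, so its difference of -0.316 (95% interval -0.697 to 0.064) was not called, with a limma adjusted p of 0.291. Averaging its 8 kept probe sets gave -0.265 with an adjusted p of 0.033.

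Rpl7a, named here after its values were seen, followed a like pattern. It measured 8.88, 9.21 and 8.77 with luciferase against 8.62 to 8.86 in the knockdown, and its difference of -0.27 had a limma adjusted p of 0.186. Over 10 brighter probe sets that carry several symbols, which the gene value leaves out, Rpl7a averaged 11.74 with luciferase and 11.70 in the knockdown. There the difference was -0.037 and the groups overlapped. Rpl3, near the peptidyl transferase centre, was steady at 13.42 to 13.53 with luciferase and 13.48 to 13.56 in the knockdown. Rpl30 had the highest value among large subunit members, 0.173, with a limma adjusted p of 0.311. On the X chromosome, Rpl36a gave 0.159 and was not called. Across the members, the luciferase array that lay farthest from the other two was the second for 24 of the 47 core genes, the third for 18 and the first for 5.

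The stalk, formed by RPLP0 with the acidic proteins RPLP1 and RPLP2, recruits the elongation factors. Rplp0 measured 13.38, 13.32 and 13.45 with luciferase and 13.40 to 13.48 in the knockdown, a difference of 0.053. Rplp1 measured 13.18, 13.14 and 13.26 with luciferase, 13.39 and 13.43 with hairpin 1, and 13.24 and 13.15 with hairpin 2. Its hairpin 1 arrays lay above luciferase and its hairpin 2 arrays among them. The difference was 0.216 with hairpin 1 (limma adjusted p 0.198) and 0.001 with hairpin 2. Allowing the spread to follow the level and down-weighting outlying genes in limma took the adjusted p of Rplp1 with hairpin 1 to 0.038. Rplp2 gave 0.096 for both hairpins. None of the 3 stalk genes was called.

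The small subunit binds the message and the initiator transfer RNA. Its 19 tested members had a median difference of 0.045, 11 positive and 8 negative. The genes whose knockdown arrays all lay above luciferase were in this subunit: Rps6, Rps13 and Rps16, 3 of 47 core members, where 13.4% of all genes did so. They are named after their values were seen. Rps6, the substrate of the S6 kinases, measured 8.76, 8.89 and 8.21 with luciferase, 9.09 and 9.05 with hairpin 1, and 9.01 and 8.92 with hairpin 2. The lowest of its luciferase arrays was 8.21, well under the other two, and the difference of 0.396 (95% interval 0.073 to 0.719) had a limma adjusted p of 0.129.

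Rps13, which takes part in joining the subunits, came closest to a call in the core. It measured 9.06, 8.83 and 8.97 with luciferase, 9.24 and 9.11 with hairpin 1, and 9.35 and 9.22 with hairpin 2. The groups did not overlap but came close, and the difference of 0.275 had a limma adjusted p of 0.0876. It was called when probe sets were averaged (0.255, adjusted p 0.0116), under median polish (0.238, 0.0127) and under a stricter filter on dim probe sets (adjusted p 0.0397). Rps16 differed by 0.09 and was not called.

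Rpsa, a small subunit protein that also serves as a laminin receptor, measured 12.44, 12.34 and 12.62 with luciferase, 12.60 and 12.63 with hairpin 1, and 12.72 and 12.60 with hairpin 2. The highest luciferase array overlapped the knockdown, and the difference of 0.171 had a limma adjusted p of 0.278. Rps15a had the narrowest spread between luciferase arrays, with an SD of 0.018 (n = 3), and its difference of -0.073 was not called. Rps19, mutated in Diamond-Blackfan anaemia, gave 0.187 with a limma adjusted p of 0.238. Rps4x, on the X chromosome, gave -0.007.

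No core member was called between the hairpins, where 0.104% of all genes were, and in limma 1 of 47 had an unadjusted p below 0.05, against 8.78% of all genes. That gene was Rps27, a zinc finger protein of the small subunit. It measured 7.48, 7.64 and 7.11 with luciferase, 6.76 and 7.27 with hairpin 1, and 7.57 and 7.97 with hairpin 2. Hairpin 1 was lower by -0.757 (95% interval -1.23 to -0.285) than hairpin 2, with a limma adjusted p of 0.318, so the mean over both hairpins of -0.016 sets opposed values against each other. Among the 51 tested members, the next largest differences of hairpin 1 minus hairpin 2 in that direction were -0.44 for Rpl39l and -0.254 for Rpl27a. In the other direction they were 0.215 for Rplp1, 0.170 for Rps18 and 0.141 for Rps3.

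The median deviation of a gene set from the genes' means over the 7 arrays shows a shared shift, not the spread of single genes. Across all genes tested it ran from -0.033 to 0.035. Across the 47 core genes it ran from -0.027 to 0.025. It was -0.015, -0.027 and -0.0033 on the luciferase arrays, 0.014 and 0.0069 with hairpin 1, and 0.0093 and 0.025 with hairpin 2. The groups did not overlap in this median, though all values were close to 0 and the sign of the core median difference turned with centring, as above. Over the probe sets of the 51 tested members, 168 of 426 differences were negative. All kept probe sets of a gene were negative in 4 genes and positive in 5, and 42 genes were mixed.

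**Figure D4:**
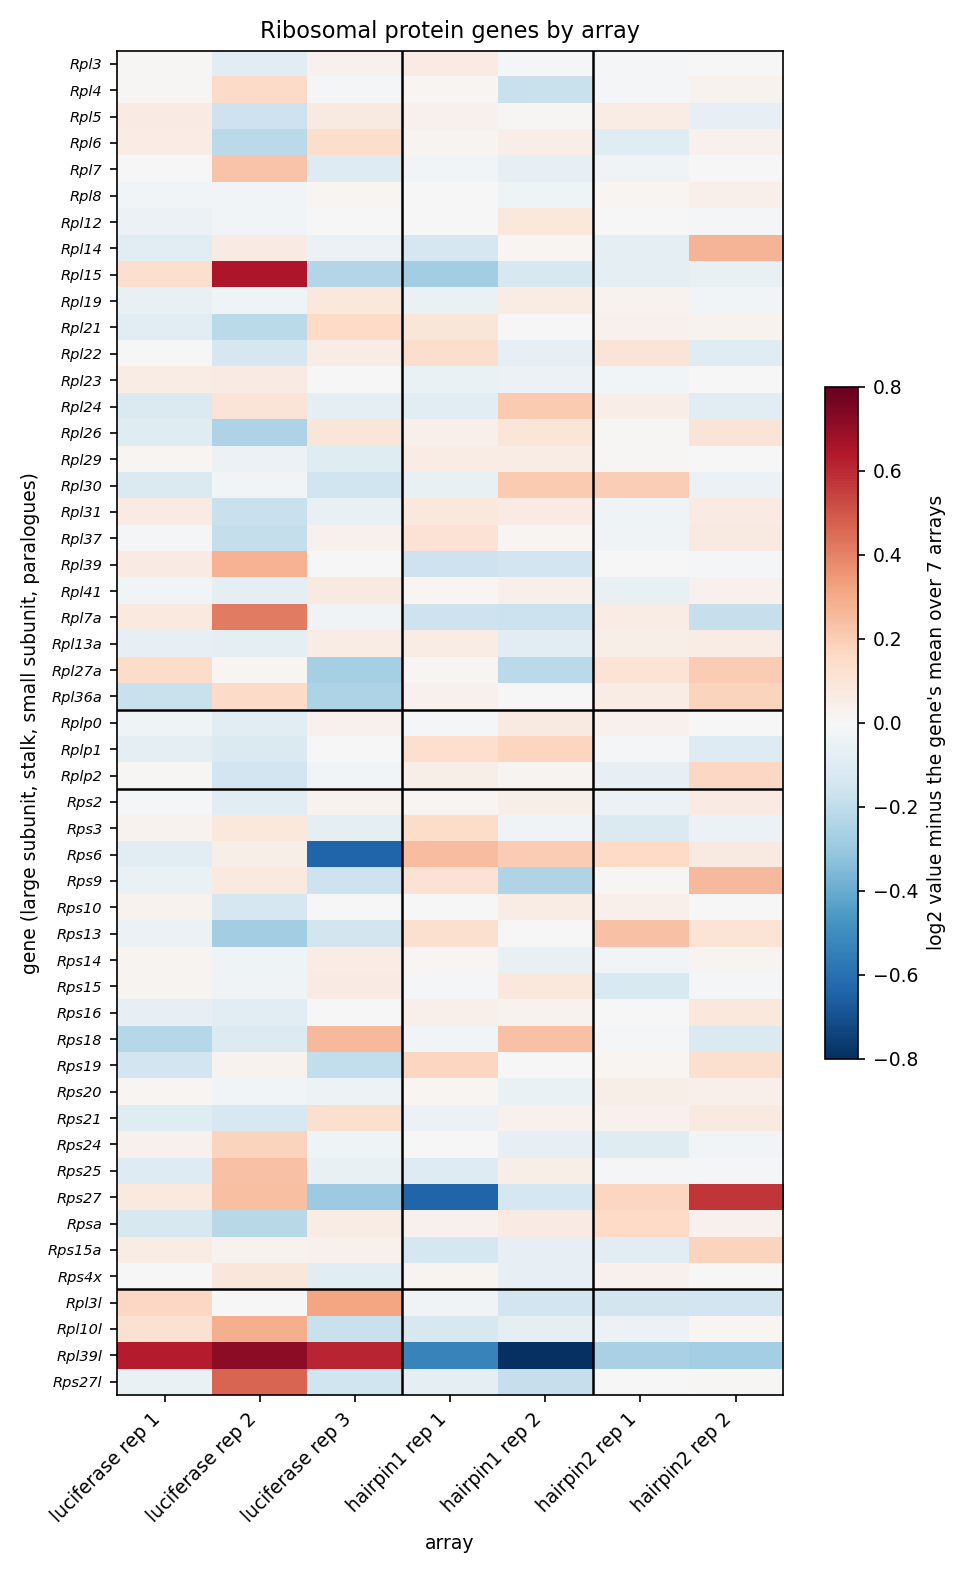
Colour map of each tested member (rows, by class) on each of the 7 arrays (columns), showing the log2 value minus the gene's own mean over the 7 arrays; red is above, blue below, and the scale stops at 0.8 either way, so the second hairpin 1 array of Rpl39l is drawn at the limit. The Rpl39l row separates the luciferase from the knockdown arrays, while the strong colours in Rpl15 and Rps6 come from 1 luciferase array each and those in Rps27 from 1 array of each hairpin.

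The 6 members with 2 kept probe sets were fitted with that lower minimum. Rpl10a, Rpl17, Rpl23a, Rpl35, Rpl35a and Rps7 gave differences of -0.034, 0.052, -0.033, 0.011, 0.171 and 0.109, and none was called. All 4 knockdown arrays of Rps7 were above luciferase, with a limma adjusted p of 0.416. For Rpl35, Rpl17 and Rpl10a the hairpins opposed each other. Rpl35 gave -0.106 with hairpin 1, both arrays below luciferase, and 0.129 with hairpin 2, both above. The hairpin 1 minus hairpin 2 differences of Rpl35, Rpl17 and Rpl10a were -0.235, -0.390 and -0.198, with limma adjusted p values of 0.600, 0.527 and 0.635.

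Genes that build or regulate the ribosome were set beside its proteins. Of 17 other tested TOP messages 1 was called, a share near the 7.9% over all genes: Eef1d, an exchange subunit that reactivates elongation factor 1. It measured 10.95, 10.85 and 10.73 with luciferase, 11.31 and 11.24 with hairpin 1, and 11.41 and 11.40 with hairpin 2. The groups did not overlap, and Eef1d rose by 0.498 with a limma adjusted p of 0.0066, and was called in every alternative run, at 0.224 with averaged probe sets and 0.181 with median polish. The median of the list was -0.07. Elongation factors Eef1a1 and Eef2 gave -0.114 and 0.064 and were not called.

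Of 45 tested ribosome biogenesis genes 1 rose, Utp14a, a part of the machinery that processes the small subunit RNA, by 0.334 (limma adjusted p 0.0488), where 5.53% of all genes rose. The list median was -0.01. Grwd1, a histone and ribosome assembly chaperone, rose with hairpin 2 alone by 0.415 (limma adjusted p 0.036). None of 12 genes of RNA polymerase I transcription was called for both hairpins, where 7.9% of all genes were. The enzyme's largest subunit Polr1a gave 0.229 and its initiation factor Rrn3 gave -0.140.

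Of 15 tested mTOR and LARP regulators 1 fell, Rheb, the GTPase that activates mTORC1, with a difference of -0.309 (limma adjusted p 0.0498), where 2.37% of all genes fell. Larp1, which binds TOP messages, gave 0.246 with a limma adjusted p of 0.109, and Mtor gave -0.016. None of 10 ribosome quality control genes was called for both hairpins, where 7.9% of all genes were. The largest values were those of Nemf (0.225) and Ascc3 (0.201), which act on stalled ribosomes. The call of Rheb was lost whichever of the 7 arrays was left out, and that of Utp14a in 6 of those 7 fits.

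The mitochondrial ribosome is built from a separate set of nuclear genes. Of 74 tested genes 5 rose for both hairpins and none fell, where 5.53% of all genes rose; the list median was 0.08. The 4 with the largest change were Mrpl46 (0.372), Mrpl20 (0.369), Mrpl33 (0.353) and Mrps28 (0.319). This count was not stable: it was 0 without any of the 3 luciferase arrays or the second hairpin 2 array, 1 without the first hairpin 2 array, and 2 without either hairpin 1 array. With each hairpin alone 1 of 74 was called, where 5.89% of all genes were with hairpin 1 and 3.79% with hairpin 2. Whether the mitochondrial and cytosolic sets differ was not tested.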

How the data were processed

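The deposited log2 values of 1201338 probe sets on each of 7 arrays were used as given; per the submitters' processing notes the authors made them with RMA in R 2.11.1. Array medians ran from 6.03 to 6.07. Platform annotation gave 1 symbol to 311384 probe sets, several to 6385 and none to 883569; only the first were named, and 45560 had their symbol updated. A probe set was kept if its mean over all 7 arrays exceeded 6.02, the median of all, and a gene value is the median of at least 3 kept probe sets. Depth has no meaning for arrays; their number limits the precision. limma 3.58.1 (R 4.3.3; lmFit, eBayes, 4 residual degrees of freedom before moderation) was fitted to all 7 arrays and 16353 genes, with Benjamini-Hochberg adjustment over all genes and calls at an adjusted p below 0.05; diffSplice tested probe sets within genes. All p-values in the text without another name are limma's.

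Many ribosomal protein messages resemble processed pseudogenes, and RMA takes no account of such cross-hybridisation, so single members can be uncertain. Members, lists and tests were chosen with earlier results of these data known. Genes named are Mettl3, the paralogues and partners, stalk genes and Rpsa, called members, the 3 largest differences per direction where none was called, the extremes of luciferase spread, and up to 4 called genes per list (or the 2 largest differences). Rpl7a, Rpl30, Rps6, Rps13, Rps16, Rps19 and the genes with fewer probe sets were named after their values were seen, as were Eef1a1, Eef2, Mtor and Grwd1. Scripts were tested on simulated data: limma called 78% of genes changed by 0.5 and 100% of those changed by 1, and 4.30% of its calls were unchanged genes. Alternatives were the dim filter, the probe set minimum, the summary, quantile normalization, centring, limma's trend and robust options, a replicate block, leaving out each array, and both hairpins as 1 group, the last chosen after seeing the data. 6 symbols with 1 probe set were left out of the members.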

Additional observations from a re-analysis of the deposited data

How the results depend on the processing

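Rpl39l was called for both hairpins under every alternative run, from -1.23 to -0.85, and from -1.23 to -1.05 with an array left out. Members called with an array left out were 1 to 1 for both hairpins and for hairpin 1, 0 to 1 for hairpin 2 and 0 to 0 between hairpins; the core median ran from 0.022 to 0.049, and members with differing probe sets from 0 to 1. A stricter dim filter called 2 members of 43 tested for both hairpins, beside 14.96% of all genes. It gave a core median of 0.029 and Rpl22l1 at 0.137. Without a filter Rpl22l1 was 0.294 and Rps4x 0.115. The mean of probe sets called 4 members for both hairpins, 3 for hairpin 1 and 2 for hairpin 2. Of all genes it called 17.4%, 13.8% and 9.94%. It gave Rpl22l1 0.083, Rpl7l1 -0.041, Rps27 0.041 and Rps15a 0.092. Median polish called 3, 3 and 2 members, beside 15.1%, 12.7% and 8.80% of all genes. It gave a core median of 0.030, Rpl22l1 0.061, Rpl7l1 -0.0094, Rps4x 0.022, Rplp0 -0.016 and Rps15a 0.171. Quantile normalization gave Rps27 0.0013 and Rps4x 0.023. Centring, which moved all genes by -0.056, gave a core median of -0.011, Rpl7l1 -0.055, Rpl22 -0.011, Rpl3 -0.033 and Rplp0 -0.0033. The trend and robust options called 3 members with hairpin 1, beside 7.89% of all genes. The causes were not tested.

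With an array left out, values crossed 0 for Mettl3 between hairpins (-0.014 to 0.286), Rpl22 (-0.010 to 0.097), Rpl22l1 (-0.151 to 0.035), Rpl3 (-0.011 to 0.046), Rpl7 (-0.142 to 0.022), Rpl7l1 (-0.034 to 0.038), Rps27 (-0.164 to 0.110), Rps27l (-0.271 to 0.044) and Rps4x (-0.051 to 0.037). A replicate block gave Rpl39l -1.16 (limma adjusted p 0.00159), Rpl7l1 -0.034, and 3.3% of all genes called against 7.9%. Same-numbered arrays correlated at -0.26 to 0.08 in their deviations, so the numbers were not taken as pairs. Mitochondrial ribosomal genes called ran from 0 to 11 over all alternatives.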

Other observations

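Some ribosomal protein genes outside the tested members could still be read, without a test. Probe sets that carry 2 or more symbols cover 14 ribosomal protein symbols, most of them tested members. Outside the tested members, Rpl38, over 14 such probe sets, averaged 12.52 with luciferase and 12.46 in the knockdown. Rps3a, over 3 such probe sets, averaged 10.28 with luciferase and 10.43 in the knockdown. Its hairpin 1 arrays overlapped luciferase, and both hairpin 2 arrays were above. Of symbols with a single probe set, Rpl9 averaged 6.97 with luciferase and 7.30 in the knockdown, all 4 knockdown arrays being above luciferase; Rpl13, Rpl28, Rpl36 and Rpl37a overlapped between the groups, and Rpl32 differed by less than 0.01 in mean.

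Annotated ribosomal protein pseudogenes were examined after the results were seen. Of 7 with enough probe sets none was called, and limma gave 1 an unadjusted p below 0.05 for both hairpins, 3 with hairpin 1 and 0 with hairpin 2, against 24.2%, 22.2% and 18.7% of all genes. All 7 differences for both hairpins were negative, with a median of -0.111, being -0.231 with hairpin 1 and -0.009 with hairpin 2. Their sequences can share probes' targets with the parent genes, and which transcript was read was not tested.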
